A study of Homo sapiens with 2 samples.

Results

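Glucose use and the response to low oxygen were examined through 44 genes in A549 cells, a human lung cancer cell line, after knockdown of the long noncoding RNA MILIP, which is annotated as MAFG-AS1. The 44 genes are a list of names drawn up by known role, with no measured value in its rule. The list was nonetheless chosen with earlier results of these data known. It comprises glucose and lactate transporters, glycolytic enzymes, pyruvate dehydrogenase kinases, hypoxia-inducible factors (HIFs), their hydroxylases and HIF target genes. All 44 were found by their Ensembl identifier among 27856 genes with a value, of 60711 genes listed. The control library came from cells transfected with a control siRNA and the MILIP siRNA library from cells transfected with si-MILIP.2 (the knockdown library below), both with a lipid reagent in serum-containing medium with antibiotics. RNA was taken 48 h after transfection. No oxygen limitation is described for either culture.

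There was 1 library per condition, each condition rests on a single siRNA treatment, and no difference could therefore be set against a spread between replicates or tested. The values were taken as CPM, read counts scaled by the authors before deposit by a method not given in the sources used here. Below 20 reads a gene is listed at 0. Where a pair of values is given, the control comes first and the knockdown second. Depth, as the sum of listed reads, was 20300800 for the control and 19460956 for the knockdown. The listed values summed to 1016808.5 and 978498.6 CPM, so they were not scaled to equal sums. Results after scaling by these sums are given below. Ratios are log2 of MILIP siRNA over control siRNA after addition of a pseudocount of 1, which draws low genes toward 0. Limits are exact 95% Clopper-Pearson limits on the ratio of reads, taken with no pseudocount, and reflect counting error alone. MILIP itself had 29.5 CPM in control cells and 3.22 CPM after knockdown. The epithelial keratins KRT8 and KRT18 were above 600 CPM in both libraries, whereas COL3A1, PECAM1, VWF and ALB, markers of other cell types, were listed at 0 in both. CD68 was also listed at 0, but shares 85.8% of its exon bases with other genes, where reads may have been dropped. KRT19 (62.1 and 122 CPM), EPCAM (2.65 and 5.93 CPM) and CDH1 (30.5 and 50.8 CPM), also epithelial, were higher after knockdown, and their part in the results was not tested. In bulk libraries such as these, fewer cells that express a gene and less RNA per cell cannot be told apart.

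Glycolysis converts glucose to pyruvate in the cytosol. Glucose enters through transporters of the SLC2A family, is trapped by hexokinase, passes the committed step at phosphofructokinase and is split by aldolase, after which the lower part of the pathway yields ATP and pyruvate. Lactate dehydrogenase converts pyruvate to lactate, which leaves the cell through SLC16A transporters, while pyruvate dehydrogenase kinases (PDKs) restrain entry of pyruvate into mitochondria-based oxidation. HIF1A and EPAS1, the oxygen-regulated HIF alpha subunits, pair with ARNT and bind the hypoxia response element of many of these genes. At normal oxygen, prolyl hydroxylases of the EGLN family mark the alpha subunits for degradation, so that HIF activity is set largely at the protein level, which RNA sequencing does not measure.

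Among the 44 genes, 12 were at least 1.5-fold lower and 4 at least 1.5-fold higher in the knockdown library, while 28 lay between these thresholds. The lower genes were SLC16A1, HK2, GPI, PFKM, PFKP, LDHA, PDK1, HIF1A, EPAS1, EGLN3, CA12 and BNIP3. The higher genes were PFKL, PDK2, PDK4 and P4HA2. By the same rule, 13.8% of the 13521 genes that averaged 1 CPM or more were lower and 11.1% were higher, against 27.3% and 9.09% of the 44 genes, all of which passed this filter. The median log2 ratio of the 44 genes was −0.25, with 31 below 0 and 13 above 0, and that of all genes past the filter was −0.03. The ratios ranged from −1.87 for CA12 to 1.23 for PDK4.

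**Figure D1:**
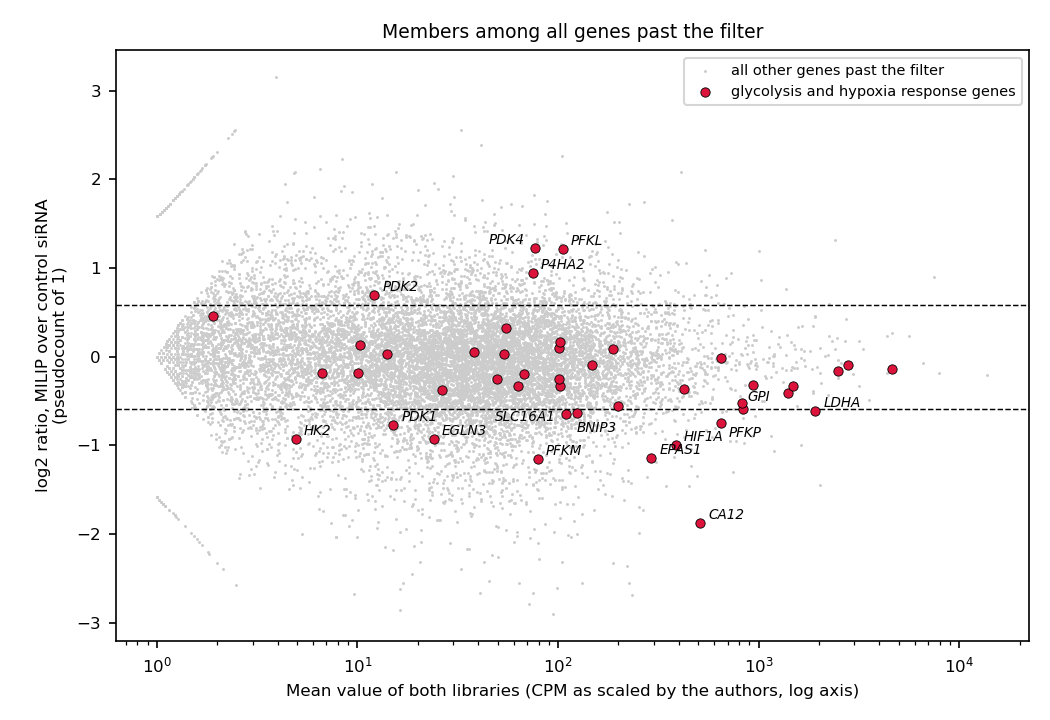
Log2 ratio of MILIP siRNA over control siRNA (pseudocount of 1) against the mean value of both libraries in CPM on a log axis, for the 44 glycolysis and hypoxia response genes (red points) and all other genes past the filter (grey). Dashed lines mark 1.5-fold, and the 16 labelled genes lie beyond them, 12 below and 4 above.

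Most of these genes are abundant, and across all genes the share past 1.5-fold varied with the level. Between 100 and 1000 CPM, 7 of 19 genes were lower and 1 was higher, whereas 14.5% of the 2087 genes in this range were lower and 8.24% higher. At 1000 CPM and above, 1 of 6 was lower, as were 5.32% of 94 genes. Between 10 and 100 CPM, 3 of 16 were lower and 3 higher, and 15.5% of the 7459 genes in this range were lower and 9.83% higher. Of the 16 genes past 1.5-fold, 11 had limits wholly beyond that threshold, and 5 (SLC16A1, GPI, PDK1, PDK2 and BNIP3) had limits that reached inside it. Limits of 7 genes held a ratio of 1, namely ALDOC, PFKFB4, PGAM1, PDK3, ARNT, CA9 and VEGFA.

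The promoters of these genes were read for the core of the hypoxia response element, searched as ACGTG and GCGTG on both strands, in RefSeq windows of 300 bases (250 before to 50 after the start; GRCh38.p14). Windows were present for 38 of the 44 genes, and 33 of these 38 genes (86.8%) held at least 1 core in a window, against 52.4% of 27305 genes. A gene with more windows has more places for a core, and the 27305 genes were not limited to those past the filter. Counted by window, 64.7% of 68 windows held a core, against 48.4% of 35116 windows. The first core overlaps the E-box CACGTG, the MYC and MAX motif, which was in 13.2% of the windows of these genes and 7.26% of all windows. A core was found for 10 of 11 lower genes, 2 of 4 higher genes and 21 of 23 genes between the thresholds. A match is a stretch of letters and not a shown binding site. As examples, the windows of a pair of lower genes, LDHA and BNIP3, and of a pair of higher genes, PFKL and PDK4, are given 5′ to 3′ on the gene's strand, with cores and E-boxes in capitals (a core on the other strand reads CACGT or CACGC). They lie at chr11:18394313-18394612 (+ strand) for LDHA, the first of its 2 windows, chr10:131981874-131982173 (− strand) for BNIP3, chr21:44299803-44300102 (+ strand) for PFKL and chr7:95596467-95596766 (− strand) for PDK4.
LDHA: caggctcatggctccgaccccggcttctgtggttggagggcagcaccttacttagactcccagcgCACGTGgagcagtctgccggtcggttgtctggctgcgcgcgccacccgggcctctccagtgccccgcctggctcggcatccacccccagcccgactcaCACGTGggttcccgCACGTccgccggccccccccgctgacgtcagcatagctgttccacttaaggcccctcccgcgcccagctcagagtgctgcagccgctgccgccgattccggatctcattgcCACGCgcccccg
BNIP3: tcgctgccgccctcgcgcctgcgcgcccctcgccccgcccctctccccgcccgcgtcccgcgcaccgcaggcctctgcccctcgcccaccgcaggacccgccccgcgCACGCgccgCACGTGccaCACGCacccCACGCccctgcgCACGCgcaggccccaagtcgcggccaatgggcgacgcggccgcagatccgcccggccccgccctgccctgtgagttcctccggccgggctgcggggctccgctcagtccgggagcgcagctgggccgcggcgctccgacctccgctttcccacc
PFKL: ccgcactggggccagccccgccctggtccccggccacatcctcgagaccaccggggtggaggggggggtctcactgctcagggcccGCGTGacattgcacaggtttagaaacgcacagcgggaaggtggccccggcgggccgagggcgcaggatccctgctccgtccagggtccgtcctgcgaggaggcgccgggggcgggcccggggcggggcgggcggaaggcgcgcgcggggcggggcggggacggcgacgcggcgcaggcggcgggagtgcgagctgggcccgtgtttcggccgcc
PDK4: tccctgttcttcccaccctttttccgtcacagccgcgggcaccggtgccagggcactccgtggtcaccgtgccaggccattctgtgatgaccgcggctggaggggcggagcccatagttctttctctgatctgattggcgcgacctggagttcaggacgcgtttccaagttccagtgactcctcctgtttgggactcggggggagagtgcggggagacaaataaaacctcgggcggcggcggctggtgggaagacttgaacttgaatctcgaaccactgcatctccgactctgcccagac
The LDHA window held 5 copies of the first core and 1 of the second, the BNIP3 window 2 and 4, the PFKL window a single GCGTG, and the PDK4 window none, where an E-box counts as a core on both strands. Windows with cores thus occurred on both sides of the comparison, and genes between the thresholds held them as well.

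The glucose transporter SLC2A1, the main importer of glucose in many tumor cells, had 237 CPM in control cells and 161 CPM in the knockdown library, a log2 ratio of −0.56 that stayed just inside 1.5-fold. SLC2A3, a high-affinity neuronal-type transporter, had 48.7 and 61.0 CPM. The pair therefore differed in direction, and the share of SLC2A1 in the reads of both genes was 83.0% (limits 82.0% to 83.9%) in control cells and 72.5% (71.2% to 73.8%) after knockdown. SLC16A1 (MCT1), which carries lactate and pyruvate with a proton, had 134 and 85.2 CPM, a log2 ratio of −0.65 (1.57-fold lower, limits 1.48 to 1.67). SLC16A3 (MCT4), the lactate exporter of highly glycolytic cells, had 97.8 and 105 CPM. SLC16A1 provided 57.8% of the reads of both lactate transporters in control cells and 44.9% in the knockdown library. These read shares are not corrected for gene length and are compared between libraries only. Per base of annotated exon, SLC16A1 was the larger in both libraries, with 69.9% and 58.0% of the pair.

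The upper part of glycolysis, with 9 genes from hexokinase to triosephosphate isomerase, held 4 lower genes and 1 higher gene, with a median log2 ratio of −0.41. Hexokinase HK1, the constitutive form, had 96.7 and 108 CPM. HK2, the inducible form, had 6.76 and 3.07 CPM from 135 and 61 reads, a log2 ratio of −0.93 (2.20-fold lower, limits 1.62 to 3.03). HK2 provided 6.54% of the reads of HK1 and HK2 in control cells and 2.75% after knockdown. The summed value of HK1 and HK2 was not lower (103 and 111 CPM). HKDC1, a further hexokinase outside the list, had 63.8 and 79.3 CPM. GPI, which turns glucose phosphate into fructose phosphate, had 1004 and 667 CPM, a log2 ratio of −0.59. The difference in GPI lay at the threshold, with limits from 1.47-fold to 1.54-fold lower, and GPI was within 1.5-fold after scaling by the median of ratios (−0.56) or by the sum of listed values (−0.53).

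The phosphofructokinase paralogs differed in direction. PFKL, the liver-type subunit, had 63.2 CPM in control cells and 148 CPM after knockdown, a log2 ratio of 1.22 (2.34-fold higher, limits 2.19 to 2.50). PFKM, the muscle-type subunit, had 110 and 48.5 CPM, a log2 ratio of −1.16 (2.26-fold lower, limits 2.09 to 2.44). PFKP, the platelet-type subunit that is the main form in many tumors, had 810 and 483 CPM, a log2 ratio of −0.74 (1.68-fold lower, limits 1.64 to 1.72). The liver-type subunit was thus higher and both others lower. Of the family's reads, PFKL held 6.43% (limits 6.09% to 6.78%) in control cells and 21.8% (21.1% to 22.5%) in the knockdown library, while PFKM held 11.1% and 7.14% and PFKP 82.4% and 71.1%. Per base of annotated exon the order was PFKP, PFKM and PFKL in control cells and PFKP, PFKL and PFKM in the knockdown library, with PFKP at 88.4% and 81.1% of the length-corrected sum. The summed value of the family was 983 and 679 CPM, so the higher PFKL value did not offset the lower values of PFKP and PFKM. PFKL lay at rank 267 from the highest ratio among 13521 genes, and PFKM at rank 429 from the lowest.

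The remaining upper enzymes were closer between libraries. ALDOA, the aldolase of muscle and most tumors, had 1607 and 1210 CPM, a log2 ratio of −0.41, and shares 53.5% of its exon bases with other annotated genes. ALDOC, the brain-type aldolase, had 9.77 and 10.8 CPM, with limits that held a ratio of 1. TPI1, which interconverts the triose phosphates, had 1039 and 834 CPM. ALDOA provided over 99% of aldolase reads in both libraries (99.4% and 99.1%). The bifunctional PFKFB enzymes, which set the level of the fructose bisphosphate that activates phosphofructokinase, all had log2 ratios below 0 and none reached 1.5-fold. PFKFB3, the form with the strongest kinase activity, had 477 and 370 CPM, a log2 ratio of −0.37. PFKFB2 had 30.1 and 22.9 CPM and PFKFB4 10.8 and 9.40 CPM, and the share of PFKFB3 in the family was nearly the same in both libraries (92.1% and 92.0%).

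The lower part of glycolysis, with 6 genes from GAPDH to PKM, had log2 ratios between −0.52 and −0.01, all below 0, and none reached 1.5-fold. PGK1, the first ATP-yielding enzyme, was the lowest of these, with 974 and 678 CPM. GAPDH had 2615 and 2348 CPM, PKM, which makes pyruvate, 4833 and 4404 CPM, and the enolases ENO1 and ENO2 2886 and 2715 CPM and 152 and 143 CPM. These 4 had log2 ratios from −0.16 to −0.09. PGAM1 was nearly equal in both libraries, with 650 and 644 CPM, and its log2 ratio was above 0 under both other scalings (0.02 and 0.04). ENO2 provided 5.01% of the reads of ENO1 and ENO2 in each library. Corrected for length, GAPDH was the most abundant of the 44 genes in both libraries (877 and 788 CPM per kb of exon), followed by PKM, LDHB and ENO1 between 547 and 564 CPM per kb in the control library.

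Lactate dehydrogenase values were lower for both subunits. LDHA, the subunit that favors lactate formation, had 2306 and 1512 CPM, a log2 ratio of −0.61 (0.656 of the control value, limits 0.646 to 0.665). LDHB, the heart-type subunit, had 1655 and 1314 CPM, a log2 ratio of −0.33. LDHA thus provided 58.2% (limits 57.9% to 58.6%) of the reads of both subunits in control cells and 53.5% (53.1% to 53.9%) in the knockdown library. LDHA was within 1.5-fold when libraries were scaled by the median of ratios (−0.58) or by the sum of listed values (−0.55) and when the trend with transcript GC content was removed (−0.51). Over all 17 glycolytic enzymes from hexokinase to lactate dehydrogenase, 5 were lower (29.4%), 1 was higher (5.88%) and 14 had log2 ratios below 0, with a median of −0.32. Their summed value was 20816 CPM (limits 20753 to 20879) in control cells and 17272 CPM (17214 to 17330) after knockdown, a change of −17.0%.

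**Figure D2:**
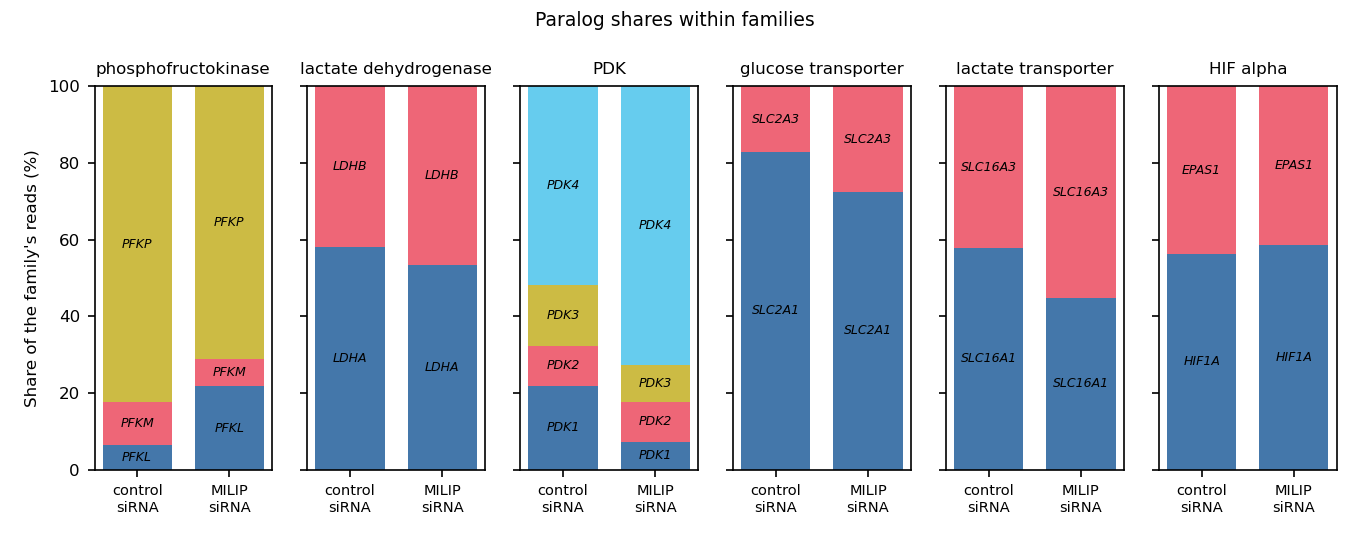
Share of each paralog in the reads of its family, in percent, in the control siRNA and knockdown libraries (stacked bars, 1 pair per family, not corrected for gene length). Families are limited to genes among the 44. The PFKL share goes from 6.43% to 21.8% and the PDK4 share from 51.9% to 72.8%, while the HIF1A share differs little (56.3% and 58.8%).

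The PDKs, which phosphorylate and inactivate the pyruvate dehydrogenase complex, were divided. PDK4, the kinase induced by fasting and fat use, had 45.4 and 108 CPM, a log2 ratio of 1.23 (2.37-fold higher, limits 2.19 to 2.56). PDK1, a HIF target, had 19.2 and 10.9 CPM, a log2 ratio of −0.77 (1.77-fold lower, limits 1.49 to 2.10). The best-known hypoxia-induced kinase was thus lower and the fasting-induced kinase higher. PDK2, broadly expressed, had 9.02 and 15.2 CPM, a log2 ratio of 0.69 (1.68-fold higher, limits 1.40 to 2.04), and shares 38.6% of its exon bases with other genes. PDK3 had 13.9 and 14.2 CPM. The summed value of the 4 kinases was 1.69-fold higher after knockdown (limits 1.59 to 1.79), in which PDK4 held 51.9% of the reads in control cells and 72.8% in the knockdown library, and PDK1 21.9% and 7.34%. PDK4 had the highest log2 ratio of the 44 genes and rank 262 from the highest among all genes past the filter. After removal of the GC trend, PDK1 (−0.57) and PDK2 (0.57) were within 1.5-fold, and so was SLC16A1 (−0.50), whereas SLC2A1 passed it (−0.66).

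Both HIF alpha subunits were lower in the knockdown library. HIF1A, which drives much of the glycolytic response to hypoxia, had 515 and 257 CPM, with limits from 1.93-fold to 2.07-fold lower. EPAS1 (HIF-2 alpha), with a partly different target range, had 400 and 181 CPM, a log2 ratio of −1.14 (2.21-fold lower, limits 2.13 to 2.30). Their partner ARNT, which is not regulated by oxygen, had 37.3 and 38.8 CPM. The alpha subunits kept similar shares of their summed reads, with HIF1A at 56.3% (limits 55.5% to 57.0%) and 58.8% (57.7% to 59.8%). Their summed value was 914 and 438 CPM. Of the prolyl hydroxylases, EGLN1 (PHD2), the main oxygen sensor, had 182 and 193 CPM. EGLN3 (PHD3), itself a HIF target, had 31.7 and 16.2 CPM, a log2 ratio of −0.93 (1.96-fold lower, limits 1.71 to 2.25).

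**Figure D3:**
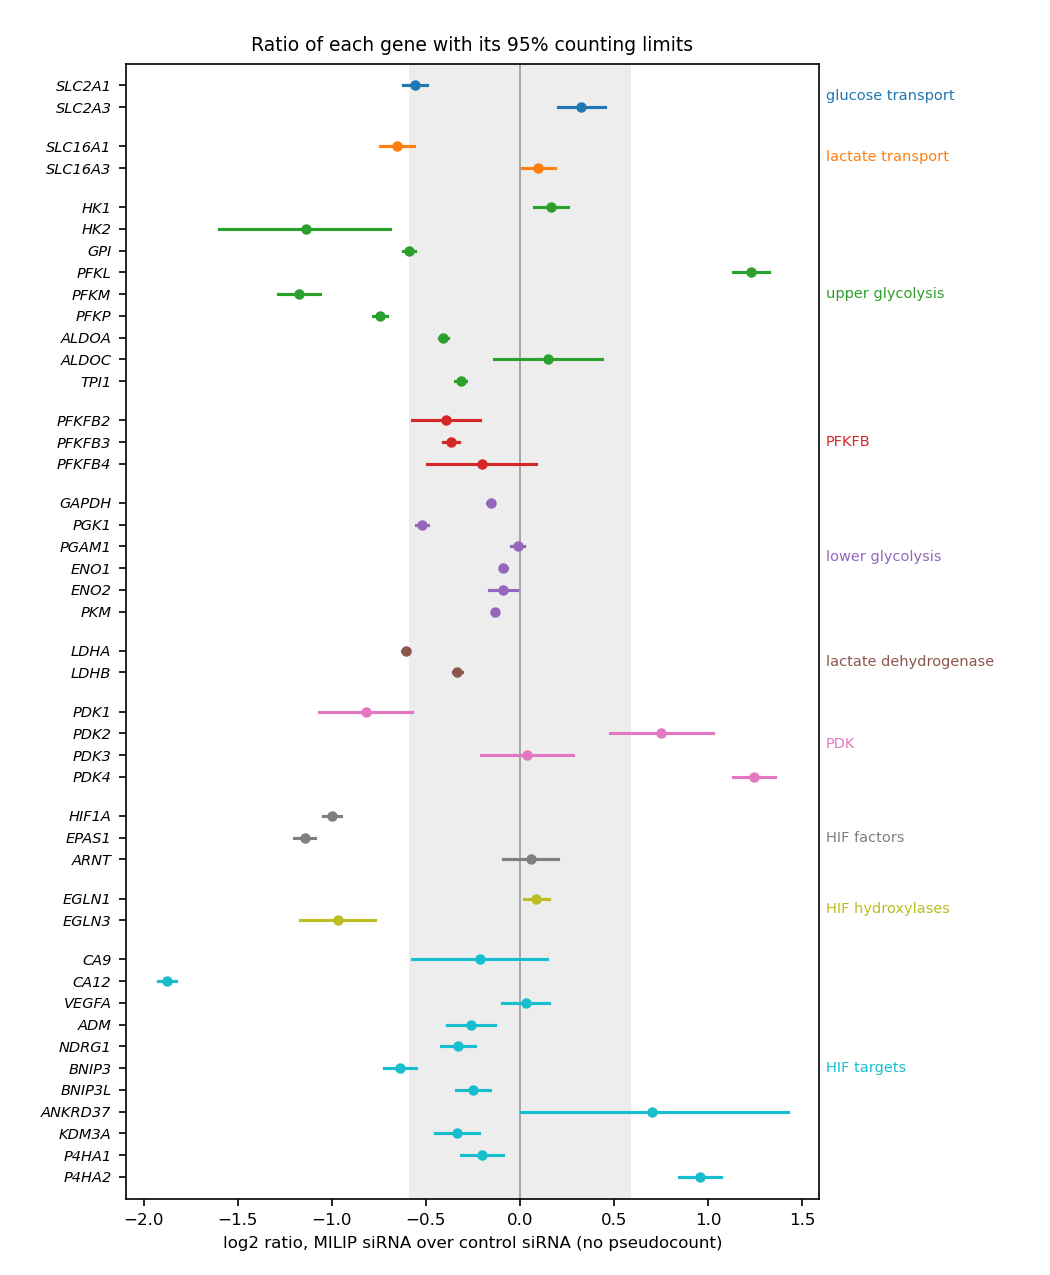
Log2 ratio without a pseudocount for each of the 44 genes, with bars for the exact 95% counting limits, grouped by role. Grey marks ratios within 1.5-fold, and the widest bars are those of ANKRD37 and HK2, the genes with the fewest reads.

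The 11 HIF target genes held 2 lower genes and 1 higher gene, with a median log2 ratio of −0.25 and 8 below 0. These shares of 18.2% lower and 9.09% higher were near those of all genes past the filter (13.8% and 11.1%). They depend on the grouping, since HIF targets are also counted in other groups, which held lower genes as well as genes within 1.5-fold. CA12, a membrane carbonic anhydrase that handles protons outside the cell, had 801 and 218 CPM from 16000 and 4333 reads, a log2 ratio of −1.87 (3.68-fold lower, limits 3.56 to 3.80). CA12 was the lowest of the 44 genes and lay at rank 67 from the lowest among all genes past the filter. CA9, its relative and a classical hypoxia marker, was low in both libraries at 7.11 and 6.13 CPM. BNIP3, which promotes removal of mitochondria, had 151 and 97.1 CPM, a log2 ratio of −0.63 (1.56-fold lower, limits 1.47 to 1.65). BNIP3L, the related mitophagy receptor, had 110 and 92.8 CPM. Scaled by the sum of listed values, BNIP3 was within 1.5-fold (−0.58). The mitophagy pair thus had the same sign, and BNIP3 had the lower ratio.

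P4HA2, a collagen prolyl hydroxylase subunit, was the single gene of these 11 past 1.5-fold upward. It had 50.8 and 98.6 CPM, a log2 ratio of 0.94 (1.94-fold higher, limits 1.80 to 2.09). Its paralog P4HA1 had 72.0 and 62.6 CPM and thus lay on the other side of 0. VEGFA, the angiogenic growth factor, was nearly equal at 53.3 and 54.5 CPM. Adrenomedullin (ADM) had 54.3 and 45.4 CPM, NDRG1 114 and 90.9 CPM, and the histone demethylase KDM3A 70.2 and 55.7 CPM. These 3 had log2 ratios of −0.26 to −0.33, within 1.5-fold. ANKRD37 was the least abundant of the 44 genes, with 1.45 and 2.36 CPM from 29 and 47 reads, and its limits ran from 1.00 to 2.68. The summed value of the 11 targets was 1486 and 824 CPM, a change of −44.6% in which CA12 made up most of the difference.

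Only CA12, among the 44, has a 3′ UTR stretch that pairs with the guide seed of si-MILIP.2. An siRNA guide can lower transcripts whose 3′ UTR pairs with its seed, as a microRNA does, and the site complementary to guide bases 2 to 8 was searched as GACCCTA in GENCODE release 29 transcripts. The guide was assumed to begin opposite the last base of its 19-base target. In CA12 the match begins at base 45 of the 3′ UTR, at chr15:63326234-63326240 (GRCh38, − strand), and is shown with the surrounding bases, 5′ to 3′ on the transcript strand, with the match in capitals.
CA12: accttgctttgGACCCTAcacacttcggc
Of the 12181 genes past the filter with an annotated 3′ UTR, 5.89% held a match, and 39.4% of those were at least 1.5-fold lower, against 12.5% of genes without a match. These shares were not corrected for 3′ UTR length. A longer 3′ UTR has more places for a match, and over these genes the ratio had a Spearman correlation of −0.20 with that length. The longest 3′ UTR of CA12 has 4907 bases, against a median of 1389 over all genes past the filter. Among the 43 genes without a match here, 11 were lower and 4 higher, so the count of lower genes rested on CA12 for 1 of 12. PFKFB3 held a match in its coding sequence and PDK2 in a 5′ UTR. The part of the seed in the CA12 value was not tested.

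Ratios also moved with transcript properties. Over 13398 genes the Spearman correlation of the log2 ratio with transcript GC content was 0.29, and over the 44 genes it was 0.19. With 3′ UTR length it was −0.20 over 12181 genes and −0.24 over the 44 genes. These correlations are across genes that share the same 2 libraries, and their part in the values was not tested. The 12 lower genes had a median GC content of 50.7% and the 4 higher genes 54.5%, with PFKL the highest of all 16 at 64.1% and PDK4 among the lowest at 39.4%. Both of the genes with the highest ratios therefore lay at opposite ends of the GC range. The median 3′ UTR length was 2056.5 bases for the lower genes, 1613.5 for the higher and 907.5 for those between. Over all genes past the filter it was 1389 bases. Besides ALDOA and PDK2, CA9 (38.5%), ANKRD37 (35.2%), LDHB (33.4%), GAPDH (14.2%) and ALDOC (10.1%) share at least 10% of their exon bases with other genes, and reads there may have been dropped or assigned to either gene. Without these 7 genes, 12 of 37 were lower and 3 higher. Of all genes past the filter, 13.8% were lower and 11.1% higher, but genes that share exon bases were not removed from these shares.

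Of 87 further genes of glycolysis, pyruvate use and the hypoxia response, 69 passed the filter, and 9 were higher and 10 lower (13.04% and 14.49%, against 11.1% and 13.8% of all genes), with a median log2 ratio of −0.04, close to that of all genes. Among 19 further genes of sugar handling, 6 were higher and 2 lower, or 31.6% and 10.5%. BSG (basigin), the chaperone that brings SLC16A1 and SLC16A3 to the membrane, had 535 and 806 CPM, a log2 ratio of 0.59, opposite in sign to SLC16A1. ENO3, the muscle enolase, had 24.3 and 51.9 CPM, GYS1, the muscle glycogen synthase, 29.6 and 45.1 CPM, and MLXIPL, a glucose-sensing transcription factor, 3.86 and 8.45 CPM. SLC2A12 (3.01 and 5.18 CPM), which shares 38.9% of its exon bases with other genes, and LDHD (1.10 and 4.47 CPM) completed the higher genes. The control value of LDHD rested on 22 reads, near the floor of 20. PYGL, the liver glycogen phosphorylase, was lower with 141 and 61.2 CPM, a log2 ratio of −1.19, and so was SLC16A7 (MCT2) with 4.41 and 2.06 CPM. The synthase GYS1 was thus higher and the phosphorylase PYGL lower. The limits of GYS1 (1.37 to 1.70), BSG (1.47 to 1.55) and SLC2A12 (1.24 to 2.41) reached inside 1.5-fold. So did those of SLC16A7 (1.46-fold to 3.18-fold lower). The more abundant phosphorylase PYGB had 378 and 396 CPM and the branching enzyme GBE1 86.6 and 85.3 CPM, both within 1.5-fold.

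Among 38 further genes of the hypoxia response, 6 were lower and 1 was higher, with a median of −0.17. The 15.8% of genes that were lower is close to the 13.8% of all genes. GPRC5A, an epithelial receptor, had 410 and 123 CPM, a log2 ratio of −1.73. HMOX1, which degrades heme and answers to oxidative stress as well as hypoxia, had 206 and 90.2 CPM, a log2 ratio of −1.18. PLOD2, a collagen lysyl hydroxylase, had 622 and 302 CPM, a log2 ratio of −1.04, opposite in sign to the collagen prolyl hydroxylase P4HA2. STC2 (150 and 78.4 CPM), the HIF coactivator EP300 (87.3 and 56.8 CPM) and PPFIA4 (3.41 and 1.46 CPM) were the other lower genes. The limits of EP300 (1.42-fold to 1.66-fold lower) and PPFIA4 (1.49-fold to 3.74-fold lower) reached inside 1.5-fold. DDIT4 (REDD1), which restrains mTORC1 in hypoxia and other stresses, was the single higher gene, with 72.7 and 112 CPM, a log2 ratio of 0.62. Its limits (1.45 to 1.65) reached inside 1.5-fold, and it shares 41.2% of its exon bases with other genes. VHL, which targets hydroxylated HIF alpha for degradation, had 79.6 and 93.9 CPM, and EGLN2 13.9 and 16.0 CPM. MIF was listed at 0 in both libraries, and shares most of its exon bases with other genes.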

How the data were processed

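RNA was sequenced from A549 cells transfected with control siRNA or MILIP siRNA, with 1 library per condition. Per the submitters' processing notes, TopHat2 2.0.12, HTSeq 0.6.1 and hg38 were used. The annotation, the strand use and the scaling method are not given in the sources used here. For each gene, the authors deposited a value in either library, beside their own fold change, p-value, q-value and call, none of which was used. The values are CPM scaled by the authors, since every value above 0 is a whole multiple of a step (0.0501 for the control and 0.0503 for the knockdown), and none is below 20 steps. A step was taken as 1 read.

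Log2 ratios with a pseudocount of 1 were computed for genes that averaged 1 CPM or more, and 1.5-fold was the threshold. No p-value was computed. Limits are exact Clopper-Pearson limits for ratios and shares and exact Poisson limits for sums. They cover counting error only, and reads without molecular identifiers are not independent molecules. The 44 genes, their groups and the further gene lists were chosen with earlier results of these data known. Every one of the 44 genes could be named, as could each further listed gene past 1.5-fold, and other genes of the lists were named after their values were seen. Gene models, transcripts and 3′ UTRs are from GENCODE release 29 (GRCh38), and promoters from RefSeq (GRCh38.p14). The si-MILIP.2 target named in the study was located in the GENCODE MILIP transcript, from which its seed site was read. For removal of the GC trend, genes were split into 50 bins of GC content and centered on their bin's median. The alternatives are given in the closing section. The calculations were tested on simulated data. Scripts ran under Python 3.11.15 (scipy 1.17.1, numpy 2.4.6, matplotlib 3.10.9, pandas 2.3.3).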

Additional observations from a re-analysis of the deposited data

How the results depend on the processing

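With 1 library per condition, no spread between cultures was measured, and leaving out a library was not possible. No paired analysis was possible because a lone library stands for either condition. Of 262 recomputed log2 ratios of the 44 genes, 217 moved by less than their counting limits and 45 moved by more. The settings of a mean of at least 5 and of no filter only choose which genes are kept. A gene's ratio cannot change under them, so these values are among the 217 by construction and show no stability. Sign changed in 4 of the 262, all within 1.5-fold, namely PGAM1 (−0.01) after scaling by the median of ratios (0.02) or the sum of listed values (0.04), and SLC16A3 (0.10 to −0.08) and VEGFA (0.03 to −0.07) after removal of the GC trend. At 2-fold in place of 1.5-fold, 2 of the 44 genes were higher and 3 lower, and 3 of the further genes were higher and 5 lower. Of all genes past the filter, 3.48% were higher and 4.62% lower at 2-fold. The median of the glycolytic enzymes was −0.24 over genes with a mean of at least 5, −0.28 after scaling by the median of ratios and −0.26 after scaling by the sum of listed values, and the change of their summed value was −15.2% and −13.8% under these scalings. The count of lower genes among the 44 was 10 under the first scaling, without GPI and LDHA, 9 under the second, without BNIP3, GPI and LDHA, and 10 after removal of the GC trend. Of all genes, 12.8%, 12.1% and 12.9% were lower under these settings, in the same order. With a pseudocount of 0.1, ANKRD37 joined the higher genes, and with a mean of at least 5, HK2 and ANKRD37 gave no value. Scaling moved the median of all genes from −0.03 to at most 0.02. The counts without CA12 or without genes that share exon bases were added after the data were seen. For genes such as ANKRD37 and HK2, the read count limits what can be said.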

Other observations

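The fate of pyruvate in mitochondria was followed in 12 further genes past the filter, of which 2 were higher and 2 lower in the knockdown library (16.7% each, against 11.1% and 13.8% of all genes). PC, the pyruvate carboxylase that feeds pyruvate into oxaloacetate, had 26.6 and 90.3 CPM, a log2 ratio of 1.72 (3.39-fold higher, limits 3.07 to 3.74). PC shares 10.5% of its exon bases with other genes. PCK2, the mitochondrial enzyme that turns oxaloacetate into phosphoenolpyruvate, had 14.6 and 22.8 CPM, a log2 ratio of 0.61. Its limits (1.35 to 1.82) reached inside 1.5-fold. DLAT, the acetyl-transferring subunit of the pyruvate dehydrogenase complex, had 79.8 and 38.0 CPM, a log2 ratio of −1.05 (2.10-fold lower, limits 1.93 to 2.29). PDP2, a phosphatase that activates the complex and opposes the PDKs, had 34.9 and 17.3 CPM, a log2 ratio of −0.97. The subunits PDHA1 (138 and 109 CPM), PDHB (48.8 and 44.2 CPM), PDHX (66.9 and 63.4 CPM) and DLD (159 and 153 CPM) lay within 1.5-fold, as did the phosphatase PDP1 (20.5 and 19.1 CPM) and citrate synthase (CS, 162 and 166 CPM). The pyruvate carrier subunits MPC1 (4.41 and 6.64 CPM) and MPC2 (35.9 and 52.3 CPM) had log2 ratios of 0.50 and 0.53.

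Set beside the PDKs, PDK4 and PC were both over 2-fold higher, and DLAT was over 2-fold lower, in libraries without replicates. The median log2 ratio of the 12 genes was −0.06, near that of all genes.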
